A study of Mus musculus with 7 samples.

Results

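The genes described here are Elane, Prtn3, Ctsg, Mpo and Ms4a3, chosen by name as genes of the neutrophil azurophil granule and of the progenitors that make it. They are 5 of the 19938 genes measured, and each was read from the only probe set annotated to it alone. Expression was measured on microarrays in hematopoietic stem cells (HSCs) sorted from mouse bone marrow as Lin-, Sca1+, c-Kit+, CD150+ and CD48-. Both genotypes carried loxP-flanked alleles of Cebpa, the gene of the transcription factor C/EBPα. The Cebpa fl/fl mice (3 arrays) had no other modification, and the Cebpa fl/fl;Mx1Cre mice (4 arrays, called Cebpa Δ/Δ here) also carried Mx1Cre, a recombinase driven by an interferon-inducible promoter that is active in many cell types besides HSCs. All were female C57BL/6 mice that, per the study's methods, were 10 to 12 weeks old when they received 3 injections of the interferon inducer pIpC, followed by ciprofloxacin in the drinking water, and both genotypes were killed at day 18.

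Azurophil granules are the first granules a developing neutrophil makes, at the promyelocyte stage. They store myeloperoxidase and a set of serine proteases that are made as inactive precursors, trimmed by a dipeptidyl peptidase and packed onto a proteoglycan core. The genes for these proteins are switched on in granulocyte-monocyte progenitors, before those of the specific granules (such as Ltf and Lcn2), and low transcript levels of some of them are known from earlier progenitors. PU.1, MYB, RUNX1 and C/EBP factors are known regulators of the class.

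Per array, values are log2 of the deposited intensity, and a log2 fold change is Cebpa Δ/Δ minus Cebpa fl/fl. Differences were tested with limma over all 19938 genes, and a gene is called lower or higher at the study's thresholds when limma's unadjusted p was under 0.05 and the change over 1.5-fold. No gene of the 19938 passed an adjusted p of 0.05 in limma (0 lower and 0 higher, with 615 lower and 877 higher at an unadjusted p under 0.05, and 0 by limma without moderation of the variances), so no change below holds across the whole table. Median intensities of the arrays lay between 46.2 and 50.4. The targeted gene Cebpa was lower on all 4 Cebpa Δ/Δ arrays (5.11 to 5.27) than on the Cebpa fl/fl arrays (5.54 to 5.75). Of the antigens of the sort, Kit was lower on all 4 Cebpa Δ/Δ arrays (9.75 to 10.38 against 10.39 to 10.46, log2 fold change -0.34), as 2.46% of all genes were, but was not called. The CD150 gene Slamf1 lay between 6.92 and 8.15 over the 7 arrays. The CD48 gene Cd48 was called higher in Cebpa Δ/Δ HSCs, as 1.57% of all genes were (6.40 to 8.82 against 4.62 to 5.61). Its log2 fold change was 2.75 (limma p 0.00249, adjusted 0.412). The Sca1 gene Ly6a was not analysed here. P-values measure the spread between these arrays alone.

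Of the 5 azurophil genes, only Elane was lower in Cebpa Δ/Δ HSCs at the study's thresholds, 1 of 5 where 0.617% of all genes were. None of the 5 was higher. By the estimate alone, with no p, Elane, Ctsg and Ms4a3 were over 1.5-fold lower, 3 of 5 where 0.968% of all genes were. All 5 log2 fold changes lay below 0, from -2.24 for Elane and -1.88 for Ctsg to -0.69 for Ms4a3, -0.40 for Mpo and -0.13 for Prtn3, with a median of -0.69 where the median of all genes was 0. All 5 were highest on the single array Cebpa fl/fl 2, as were 10.9% of all genes. Without that array the log2 fold changes of Ms4a3 (0.15), Mpo (0.40) and Prtn3 (0.19) lay above 0, and those of Elane (-1.23) and Ctsg (-0.95) stayed below it. In bulk RNA such as this, fewer cells of a type and less RNA per cell cannot be told apart.

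**Figure D1:**
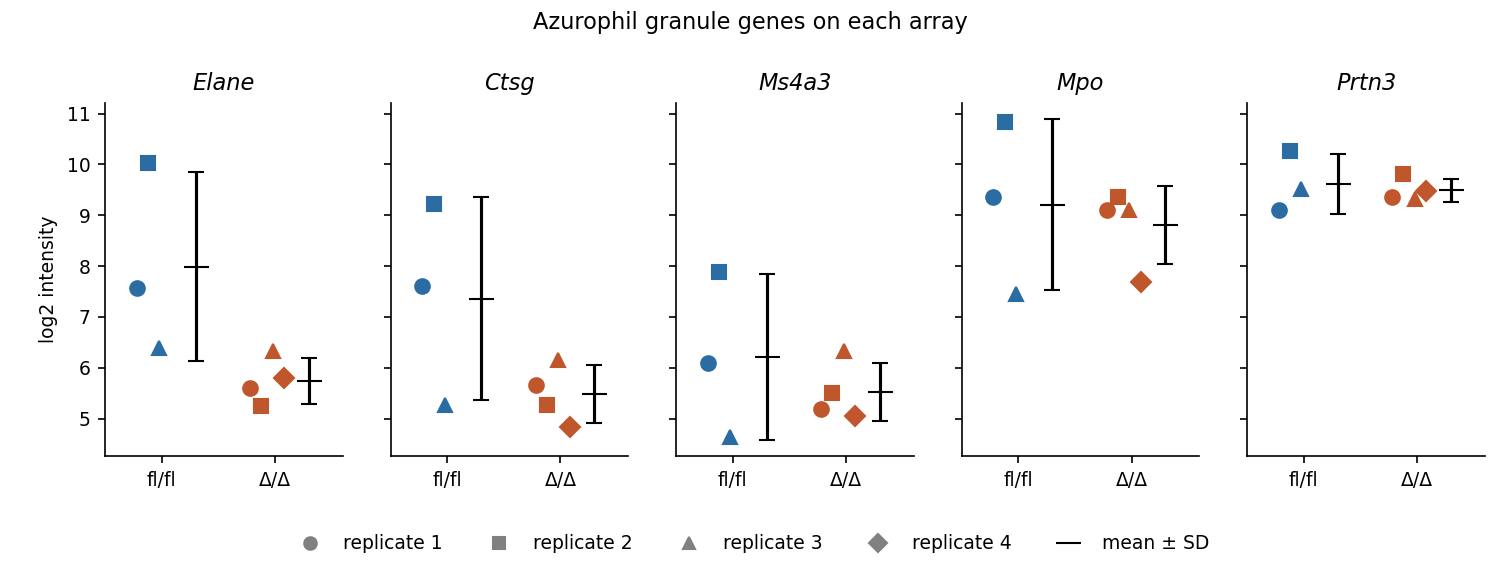
Log2 intensity (vertical axis) of the 5 azurophil genes on 3 Cebpa fl/fl arrays (blue) and 4 Cebpa Δ/Δ arrays (orange); symbols give the replicate number of the labels, and black bars the mean ± SD of each genotype. Cebpa fl/fl 2 (blue square) is the highest array for every gene, and only for Elane do all 4 Cebpa Δ/Δ arrays lie below all 3 Cebpa fl/fl arrays.

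Elane encodes neutrophil elastase, the serine protease of the granule that cleaves elastin and bacterial proteins. Its probe set (10364535) measured 7.56, 10.02 and 6.38 on Cebpa fl/fl arrays 1 to 3 and 5.61, 5.25, 6.32 and 5.80 on Cebpa Δ/Δ arrays 1 to 4. The Cebpa Δ/Δ arrays all lay below the Cebpa fl/fl arrays, but the lowest control (fl/fl 3) exceeded the highest deleted array (Δ/Δ 3) only narrowly, and the controls were spread over 12.4-fold against 2.11-fold among the deleted arrays. Such a separation downward was seen for 2.46% of all genes. The means were 7.99 ± 1.86 (SD, n = 3) and 5.74 ± 0.45 (SD, n = 4). The log2 fold change was -2.24 (SE 0.82, 95% interval -4.22 to -0.27), which is 4.73-fold lower in Cebpa Δ/Δ HSCs, with a limma p of 0.0316 and an adjusted p of 0.663. The exact two-sided permutation p was 0.0286, the smallest that 7 arrays allow. The size rested on fl/fl 2: without it the log2 fold change was -1.23 (limma p 0.0334), and without fl/fl 3 it was -3.05 (0.00701). Without fl/fl 1, Δ/Δ 1, Δ/Δ 2 or Δ/Δ 4 limma's p rose to 0.0584, 0.0686, 0.0761 and 0.0635.

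Prtn3 encodes proteinase 3, a close relative of elastase and the target of antibodies in granulomatosis with polyangiitis. On the mouse chromosome it is the neighbour of Elane: 3137 bases separate the genes and 0 protein-coding genes lie between them. Its probe set (10364529) measured 9.10, 10.26 and 9.51 on the Cebpa fl/fl arrays and 9.35, 9.82, 9.32 and 9.47 on the Cebpa Δ/Δ arrays. The genotypes overlapped throughout, and the 2.23-fold range of the controls was the narrowest of the 5 genes. The means were 9.62 ± 0.59 (SD, n = 3) and 9.49 ± 0.23 (SD, n = 4). The log2 fold change of -0.13 (SE 0.28, 95% interval -0.80 to 0.54) had an adjusted p of 0.904 in limma and an exact permutation p of 0.714. The interval's lower end is a fall smaller than the estimate for Elane but lies within the interval of Elane (-4.22 to -0.27). Without fl/fl 2 the value was 0.19.

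Ctsg encodes cathepsin G, a chymotrypsin-like protease of the same granule. Its probe set (10420261) measured 7.61, 9.22 and 5.26 on the Cebpa fl/fl arrays and 5.67, 5.26, 6.16 and 4.83 on the Cebpa Δ/Δ arrays. fl/fl 1 and fl/fl 2 lay above every Cebpa Δ/Δ array, whereas fl/fl 3 lay among them. The means were 7.36 ± 1.99 (SD, n = 3) and 5.48 ± 0.57 (SD, n = 4). The log2 fold change was -1.88 (SE 0.90, 95% interval -4.03 to 0.27), with an adjusted p of 0.688 in limma and an exact permutation p of 0.143. Here 1 control array decided the call: without fl/fl 3 the log2 fold change was -2.93 (limma p 0.00295), past the study's thresholds, and without fl/fl 2 it was -0.95 (0.243).

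Mpo encodes myeloperoxidase, the heme enzyme that makes hypochlorous acid from hydrogen peroxide and chloride. Its probe set (10380174) measured 9.35, 10.83 and 7.46 on the Cebpa fl/fl arrays and 9.10, 9.35, 9.10 and 7.68 on the Cebpa Δ/Δ arrays. Each genotype had 1 low array, fl/fl 3 and Δ/Δ 4, and the Cebpa Δ/Δ arrays fell within the range of the controls. The means were 9.21 ± 1.69 (SD, n = 3) and 8.81 ± 0.76 (SD, n = 4). The log2 fold change of -0.40 (SE 0.82, 95% interval -2.37 to 1.56) had an adjusted p of 0.899 in limma and an exact permutation p of 0.8. It was 0.40 without fl/fl 2, -1.28 without fl/fl 3 and -0.03 without Δ/Δ 4, and the interval reaches past the estimate for Elane.

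Ms4a3 encodes a protein of the membrane-spanning MS4A family and is known as a marker of granulocyte-monocyte progenitors. Its probe set (10466224) measured 6.10, 7.88 and 4.63 on the Cebpa fl/fl arrays and 5.18, 5.50, 6.33 and 5.06 on the Cebpa Δ/Δ arrays. The lowest and the highest array were both Cebpa fl/fl, and the Cebpa Δ/Δ arrays lay between them. The means were 6.21 ± 1.63 (SD, n = 3) and 5.52 ± 0.57 (SD, n = 4). The log2 fold change of -0.69 (SE 0.75, 95% interval -2.50 to 1.12) had an adjusted p of 0.814 in limma and an exact permutation p of 0.514. It was 0.15 without fl/fl 2 and -1.47 without fl/fl 3.

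**Figure D2:**
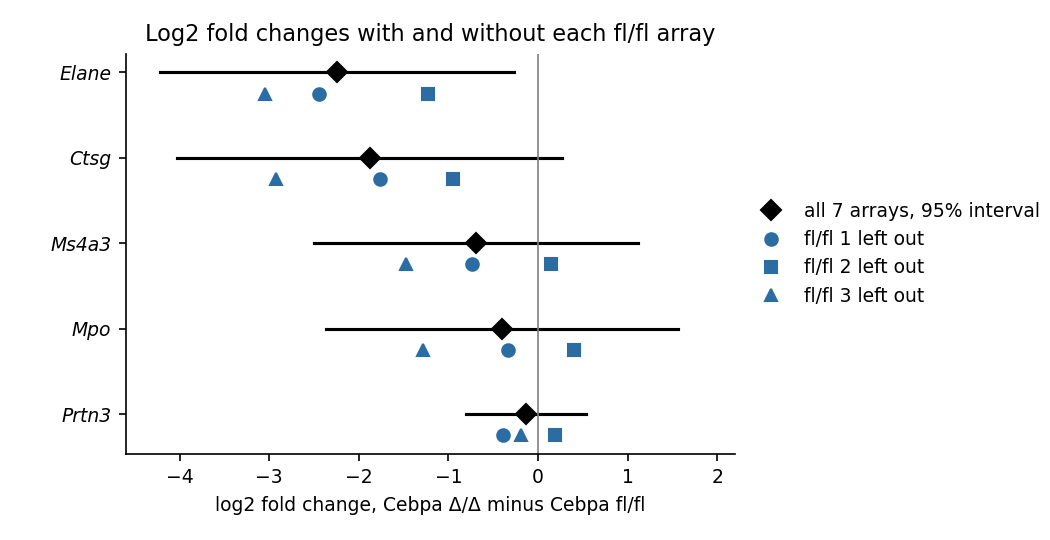
Log2 fold changes (horizontal axis, Cebpa Δ/Δ minus Cebpa fl/fl) of the 5 genes over all 7 arrays (black diamonds, with limma's 95% interval) and with each Cebpa fl/fl array left out (blue symbols). Leaving out fl/fl 2 moves every gene upward and takes Ms4a3, Mpo and Prtn3 past 0, and only the interval of Elane (-4.22 to -0.27) lies wholly below 0.

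The controls varied more than the deleted HSCs for all 5 genes. Ctsg spanned 15.5-fold over the Cebpa fl/fl arrays, Elane 12.4-fold, Mpo 10.3-fold, Ms4a3 9.53-fold and Prtn3 2.23-fold. Over the Cebpa Δ/Δ arrays the same genes spanned 2.52-fold, 2.11-fold, 3.19-fold, 2.40-fold and 1.41-fold. There the intensities of Elane (38 to 80), Ctsg (28.4 to 71.3) and Ms4a3 (33.5 to 80.5) lay around the array medians of 46.2 to 50.4. Those of Mpo (205 to 653) and Prtn3 (639 to 904) lay well above. Whether low signal narrowed the ranges of the dimmer genes was not tested. The SD among the controls exceeded that of 99.9% of genes for Elane, Mpo and Ms4a3 that of 97.6% for Prtn3 and, after rounding, that of 100% for Ctsg. 4 of the 5 genes ran in the order fl/fl 2, fl/fl 1, fl/fl 3 from high to low, an order shared by 9.69% of all genes, and Prtn3 differed in having fl/fl 1 lowest. The mean of the 5 genes, each centred on its own mean, was 0.48, 2.17 and -0.82 on the Cebpa fl/fl arrays and -0.48, -0.43, -0.02 and -0.90 on the Cebpa Δ/Δ arrays, so fl/fl 3 lay below all but the last of the deleted arrays.

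Pairs of genes were next compared on the same arrays, as the log2 ratio of both probe sets. Only the difference of a ratio between genotypes has a meaning here, since probe sets differ in brightness. Against Mpo, Prtn3 or Ms4a3, the ratios of Elane and of Ctsg were lower in Cebpa Δ/Δ HSCs in all 6 pairs (differences of -2.11 to -1.20 on the log2 scale). This direction was fixed beforehand, since such a difference equals that between the log2 fold changes of the 2 genes, given above. The ratios add only the spread between arrays, and none of the 10 pairs passed after adjustment over the 10. The ratio of Elane to Ms4a3 was 1.46, 2.13 and 1.75 on the Cebpa fl/fl arrays and 0.43, -0.26, -0.01 and 0.73 on the Cebpa Δ/Δ arrays. These did not overlap, at a difference of -1.56 (exact permutation p 0.0286, adjusted 0.114). The ratio of Ctsg to Mpo, -1.74, -1.61 and -2.20 against -3.43, -4.09, -2.94 and -2.85, did not overlap either, at a difference of -1.48 (exact permutation p 0.0286, adjusted 0.114). The controls spread less in these ratios (SD 0.34 and 0.31) than in any of the 5 genes alone. With each array left out in turn the 2 differences ranged from -1.73 to -1.38 and from -1.65 to -1.22.

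The other pairs are given by their difference between genotypes. Elane relative to Prtn3 had the largest, -2.11, followed by Elane relative to Mpo at -1.84 (exact permutation p 0.0571 for each, adjusted 0.114). Ctsg relative to Prtn3 was at -1.75 (exact permutation p 0.143, adjusted 0.238) and relative to Ms4a3 at -1.20 (exact permutation p 0.0571, adjusted 0.114). The genotypes also did not overlap, by narrow margins, for Elane relative to Mpo (-1.79 on fl/fl 1, -1.88 on Δ/Δ 4). The same held for Ctsg relative to Ms4a3 (0.63 on fl/fl 3, 0.49 on Δ/Δ 1). Elane and Ctsg differed from each other by -0.36 (exact permutation p 0.371), and Mpo, Prtn3 and Ms4a3 among themselves by -0.55 to -0.27 (exact permutation p 0.514 to 0.686). The order from Elane and Ctsg to Ms4a3, Mpo and Prtn3 is that of the log2 fold changes themselves. No neighbours in that order were separated beyond their spread after adjustment.

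Over the 7 arrays Elane followed Ctsg most closely (Pearson's r 0.95, and 0.84 over 6 arrays without fl/fl 2). Ctsg and Ms4a3 had an r of 0.91 (0.72 without fl/fl 2), Ms4a3 and Mpo of 0.89 (0.76), Elane and Ms4a3 of 0.85 (0.42) and Ctsg and Mpo of 0.83 (0.60). The r of Elane with Mpo was 0.66 and dropped to 0.07 without fl/fl 2. Prtn3 stood apart from the rest: its r with the other 4 was 0.42 to 0.55 over 7 arrays and -0.81 to -0.16 without fl/fl 2. These values are descriptions over few arrays that share their genotype and their RMA run.

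**Figure D3:**
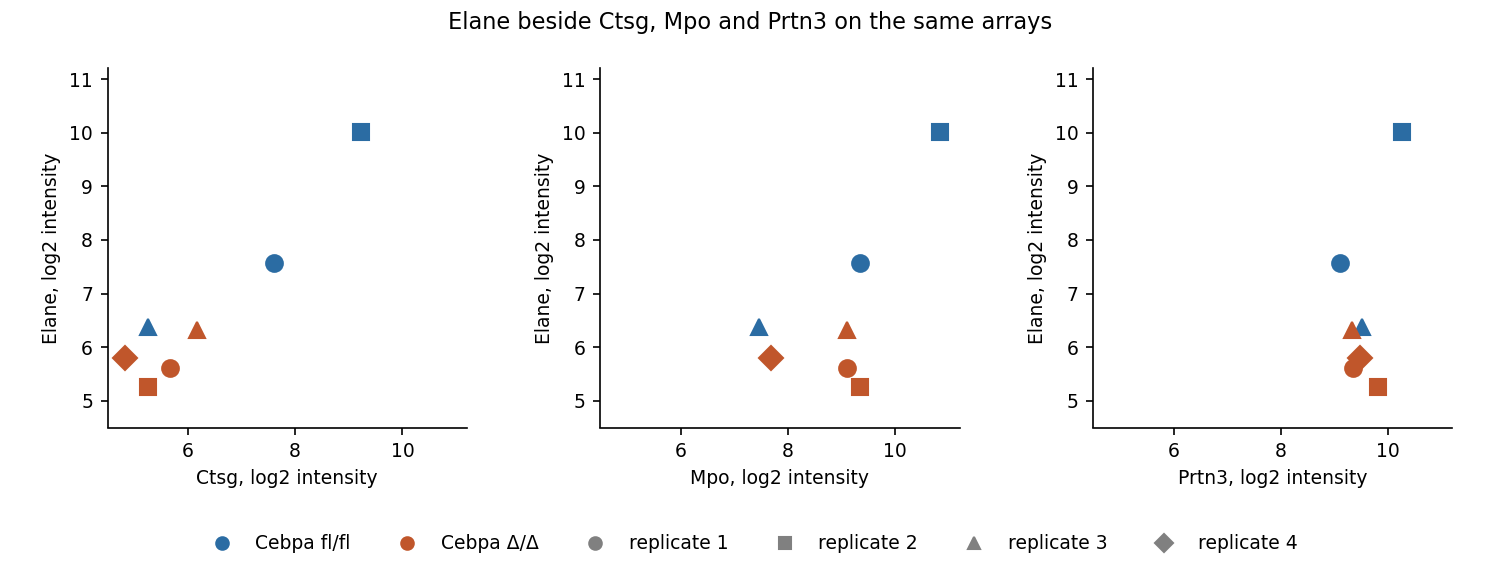
Log2 intensity of Elane (vertical axes) against that of Ctsg, Mpo and Prtn3 (horizontal axes) on the same 7 arrays, Cebpa fl/fl in blue and Cebpa Δ/Δ in orange, with symbols for the replicate number. Elane rises with Ctsg over all arrays (r 0.95), whereas against Mpo the Cebpa Δ/Δ arrays lie lower on Elane at like values of Mpo, and against Prtn3 the r is -0.81 without fl/fl 2, the highest array in each panel.

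The sequences before the gene starts are shown for Elane and Prtn3, neighbours whose values differed, and for Ctsg, the gene that followed Elane. They are RefSeq windows of 250 bases on GRCm38.p6, written 5′ to 3′ on the strand of the gene and ending at the base before the annotated start. Elane lies on the plus strand at chr10:79886062-79886311, Prtn3 on the plus strand at chr10:79879417-79879666 and Ctsg on the minus strand at chr14:56102575-56102824. Capitals mark matches to a core PU.1 motif (GAGGAA) and to core MYB motifs (AACTG or AACGG), searched on both strands. No marked matches overlap.
Elane: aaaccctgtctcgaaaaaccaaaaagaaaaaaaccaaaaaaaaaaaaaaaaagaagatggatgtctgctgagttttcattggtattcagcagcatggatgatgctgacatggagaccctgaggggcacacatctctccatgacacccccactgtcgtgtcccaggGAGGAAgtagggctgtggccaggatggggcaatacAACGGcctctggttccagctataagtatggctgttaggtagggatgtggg
Prtn3: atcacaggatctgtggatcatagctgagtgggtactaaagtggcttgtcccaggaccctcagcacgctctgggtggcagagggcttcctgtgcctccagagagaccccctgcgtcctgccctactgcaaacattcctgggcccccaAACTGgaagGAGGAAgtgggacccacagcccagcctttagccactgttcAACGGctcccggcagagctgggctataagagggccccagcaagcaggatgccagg
Ctsg: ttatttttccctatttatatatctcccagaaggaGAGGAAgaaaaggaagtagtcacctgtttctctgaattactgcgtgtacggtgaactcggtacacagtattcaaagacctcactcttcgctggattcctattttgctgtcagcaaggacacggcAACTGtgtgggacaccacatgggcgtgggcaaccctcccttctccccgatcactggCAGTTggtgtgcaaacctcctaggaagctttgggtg

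Elane and Prtn3 held a like arrangement of letters. GAGGAA began 85 bases before the start of Elane and 95 before that of Prtn3, AACGG began 50 and 55 bases before, and TATAA 31 and 32 bases before. Prtn3 held a further AACTG at 104 bases. In Ctsg, GAGGAA began 216 bases before the start and MYB matches at 92 and 36. The window of Mpo (chr11:87793534-87793783, plus strand) held GAGGAA 2 times and AACTG 1 time, and that of Ms4a3 (chr19:11640852-11641101, minus strand) neither. Over 32851 mouse windows of this length, 23.3% held the PU.1 letters, 48.6% the MYB letters and 22.8% TATAA on either strand. A C/EBP motif spelled TTNCNNAA or TTNNGNAA occurred in the window of Ms4a3 alone of the 5 and in 36.8% of all windows, and the RUNX letters TGTGGT, as ACCACA on the strand shown, occurred in that of Ctsg alone and, on either strand, in 14% of all. Matches are descriptions of these letters, and a window without them says nothing of the factors.

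Of 10 measured genes that make the proteases active and pack them, 0 were higher and 0 lower at the study's thresholds, with a median log2 fold change of -0.11. Ctsc, which encodes the dipeptidyl peptidase that activates the serine proteases, measured 7.65, 7.84 and 7.64 against 7.78, 8.14, 7.48 and 7.70 (log2 fold change 0.06). Srgn, the gene of the proteoglycan core serglycin, was at -0.20, and Stxbp2, which serves granule release, at -0.10. Of 8 measured protease inhibitor genes, 1 was higher, where 1.57% of all genes were, and 0 lower, and the median was 0.21. That gene was Cst7, which encodes cystatin F, an inhibitor of cysteine cathepsins including cathepsin C. It measured 6.34, 7.13 and 5.99 on the Cebpa fl/fl and 8.45, 7.80, 8.32 and 7.60 on the Cebpa Δ/Δ arrays, without overlap, as 3.51% of all genes did upward (log2 fold change 1.55, limma adjusted p 0.412). Serpinb1a, an inhibitor of elastase, cathepsin G and proteinase 3, was at 0.26, and Slpi, which inhibits elastase and cathepsin G, at 0.68 with overlapping arrays.

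Of 20 measured genes for other azurophil and lysosomal granule proteins, 0 were called in either direction, and their median was -0.04. The probe sets of highest mean value were those of Cd63 (-0.03), Lamp1 (0.05), Ctsd (0.28) and Lyz2 (-0.88). Lyz2, one of the lysozyme genes, measured 9.89, 10.54 and 9.48 against 9.04, 9.83, 8.16 and 9.33 (limma adjusted p 0.694). Prss57, the gene of a further serine protease of the granule and a near neighbour of Elane and Prtn3, was picked out after its values were seen: at 5.92, 6.86 and 5.23 against 5.59, 5.59, 5.59 and 5.19 it had the order of the control arrays of Elane, and a log2 fold change of -0.51. Of the 9 measured neighbours of Elane and Prtn3 none was called in either direction (median -0.05), nor of the 7 near Mpo (median -0.01). Of 12 near Ctsg, in the granzyme and mast cell protease cluster, 1 was higher, where 1.57% of all genes were: Gzmb, a cytotoxic granule protease, at 1.34. It missed an unadjusted p of 0.05 in limma without fl/fl 1 or fl/fl 3 and was at 0.88 without fl/fl 1 and Δ/Δ 3 together. Of 18 relatives of Ms4a3, 1 was higher, where 1.57% of all genes were. This was Ms4a6d at 0.62, a dim probe set whose log2 fold change was 0.02 with a floor at the percentile 25 of all values. It was also not called with array weights, without fl/fl 1, without Δ/Δ 3 or without fl/fl 1 and Δ/Δ 3 together.

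Myeloperoxidase uses hydrogen peroxide derived from the NADPH oxidase. All 8 measured peroxidase and oxidase genes had log2 fold changes below 0 (median -0.33), and the share of all genes below 0 was not counted. Lpo (-0.06), Epx (-0.09) and Pxdn (-0.01) were dim, at mean log2 values of 4.7, 3.8 and 4.23. Rac2 (-0.3) was not called, but its genotypes did not overlap (9.96 to 10.34 against 10.37 to 10.45), as for 2.46% of all genes downward. 1 of the 8 was called lower, where 0.617% of all genes were. This was Cybb, the gene of the catalytic oxidase subunit. Cybb measured 6.80, 7.02 and 5.18 on the Cebpa fl/fl arrays and 5.26, 4.85, 5.73 and 4.66 on the Cebpa Δ/Δ arrays. As for Ctsg, fl/fl 3 lay among the deleted arrays. Its log2 fold change of -1.21 had an adjusted p of 0.663 in limma. Cybb lost the call without fl/fl 1, fl/fl 2, Δ/Δ 1, Δ/Δ 2 or Δ/Δ 4, and without fl/fl 1 and Δ/Δ 3 together. It also lost the call with array weights, with a floor on low values or with the replicate number as a block. Its value without fl/fl 3 was -1.79. Of 13 transcription factor genes known for this gene class, 0 were called, with a median of -0.05. Cebpa (-0.41) and Cebpe (-0.32), the latter a factor of later granulocyte stages, did not overlap between genotypes, as 2.46% of all genes did not downward. Both changed by less than 1.5-fold, while Myb (-0.06), Spi1, the gene of PU.1 (0.24), and Runx1 (-0.25) overlapped.

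Genes of granulocyte-monocyte progenitors and of later neutrophils were set beside the 5 genes. Of 24 measured progenitor markers, 3 were lower (Hp at -1.39, Anxa3 at -1.21 and Fcnb at -1.07) and 1 higher (Ly86 at 1.37), with a median of -0.27. Of all genes, 0.617% were lower and 1.57% higher. Without fl/fl 2, 1 was lower and 2 were higher. 10 of the 24 were highest on fl/fl 2, as were 10.9% of all genes. Their mean centred level was 0.05, 0.47 and -0.17 on the Cebpa fl/fl arrays and -0.13 to -0.05 on the Cebpa Δ/Δ arrays. In the list mean fl/fl 2 was highest and fl/fl 3 lowest of the controls, as in the mean of the 5 genes, but only 6 of the 24 markers ran in the order fl/fl 2, fl/fl 1, fl/fl 3 themselves, against 4 of the 5. Hp was not called without fl/fl 1, fl/fl 2 or Δ/Δ 2, Anxa3 without fl/fl 1 or fl/fl 2, and Ly86 without fl/fl 1, fl/fl 3, Δ/Δ 1 or Δ/Δ 4 or with a floor on low values. All 3 lost the call without fl/fl 1 and Δ/Δ 3 together. Hp and Ly86 also lost it with the replicate number as a block.

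Of 18 specific granule and mature neutrophil genes, 14 were lower, where 0.617% of all genes were, and 0 higher, with a median of -1.62. Without fl/fl 2, 11 were lower. Hp stands in both lists. 15 of the 18 were highest on fl/fl 2, as were 10.9% of all genes. Their mean centred level was 1.5, 2.01 and 0.65 on the Cebpa fl/fl arrays and -1.29 to -0.69 on the Cebpa Δ/Δ arrays, so fl/fl 2 was highest and fl/fl 3 lowest of the controls here as well, but fl/fl 3 stayed above the deleted arrays. Of the lineage antigens of the sort, Ly6g was lower (-1.84, and -1.07 with a floor at the percentile 25 of all values, under which all 4 of its Cebpa Δ/Δ values lay). The others measured were not called: Cd3e at 0.30, Itgam at 0.16 and Ptprc at -0.03. For Cd3e all 4 Cebpa Δ/Δ arrays lay above the Cebpa fl/fl arrays, as for 3.51% of all genes. Of 12 monocyte and macrophage markers, 3 were higher (Ctss, C1qb and C1qc), where 1.57% of all genes were, and 0 lower, with a median of 0.51. The other 9 were not called. Of these, Ms4a6c (0.58) was higher on all 4 Cebpa Δ/Δ arrays than on the Cebpa fl/fl arrays, as 3.51% of all genes were. C1qa was at 0.96, Ms4a7 at 0.93, Cd68 at 0.43 and Csf1r at 0.21. Klf4 (-0.27) alone of the 12 lay below 0, and 0 of the 12 were highest on fl/fl 2. Of 16 markers of mast cells, basophils and eosinophils, the mast cell carboxypeptidase gene Cpa3 alone was called, higher at 2.66, where 1.57% of all genes were. The part of any of these cells in the values of the 5 genes was not tested.

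**Figure D4:**
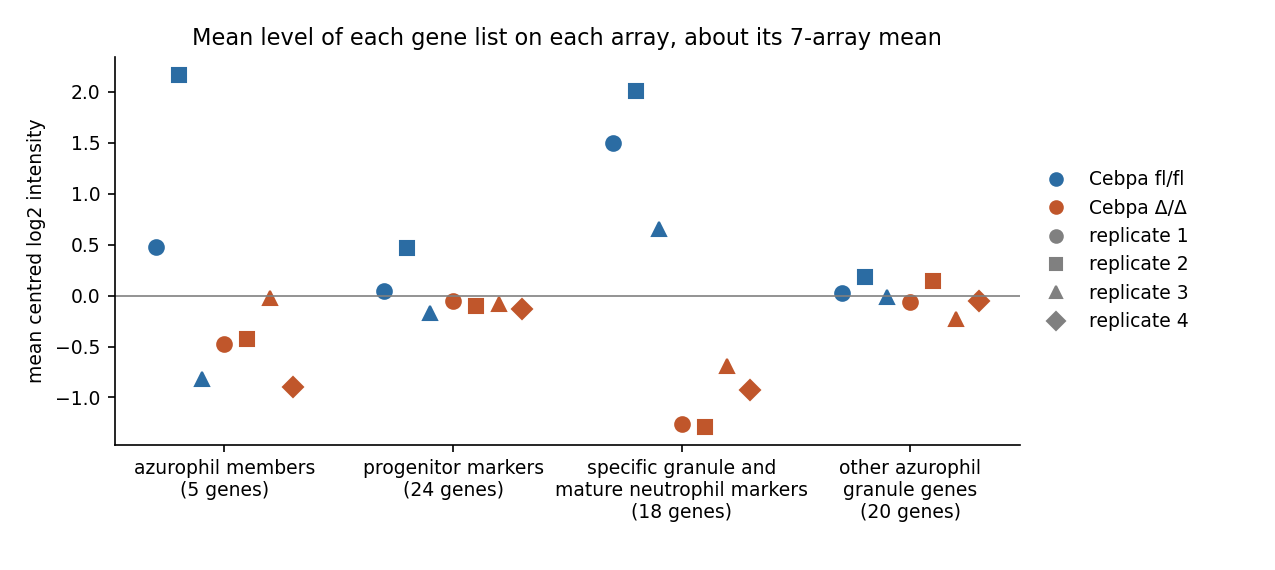
Mean over the genes of a list of the log2 intensity centred on each gene's mean over the 7 arrays (vertical axis), for the 5 azurophil genes, 24 progenitor markers, 18 specific granule and mature neutrophil genes and 20 other azurophil granule genes; 1 point per array, Cebpa fl/fl in blue and Cebpa Δ/Δ in orange. The genotypes separate for the specific granule genes, and for the 5 azurophil genes Cebpa fl/fl 3 (-0.82) lies among the Cebpa Δ/Δ arrays.

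The azurophil genes were also set against specific granule genes on the same arrays. Each of the 5 was divided by Ltf (lactoferrin), Lcn2 (a siderophore-binding lipocalin) and S100a8 (a calprotectin subunit), genes chosen with their fall in these arrays known, which fixes the direction of the ratios. The values are therefore given as a description of sizes, with no test. The ratio of Prtn3 to Lcn2 was -1.07, -0.73 and 0.84 on the Cebpa fl/fl arrays and 4.79, 5.42, 4.41 and 4.03 on the Cebpa Δ/Δ arrays, a difference of 4.98. The ratio of Mpo to Lcn2 was -0.82, -0.17 and -1.21 against 4.54, 4.95, 4.19 and 2.24, a difference of 4.71. The genotypes did not overlap in either ratio, as they did not in Lcn2 alone (log2 fold change -5.12). Elane came closest to the specific granule genes, with differences of 1.12 to Ltf, 2.87 to Lcn2 and 2.96 to S100a8. Its ratio to Ltf was -1.10, 0.63 and -0.30 against 0.84, 0.63, 0.90 and 1.09, where fl/fl 2 and Δ/Δ 2 were equal to the printed digits. The ratio of Elane to S100a8 overlapped between genotypes (-2.24 on fl/fl 2 and -2.44 on Δ/Δ 3). Ctsg had differences of 1.48, 3.24 and 3.32 to the same genes and Ms4a3 of 2.68, 4.43 and 4.51.

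The genes whose values over the 7 arrays were most like the mean of the 5 were ranked by Pearson's r among the 9965 genes above the median level, the 5 left out. Of these 9965 genes, 25 had an r over 0.9. Whether that is more than chance gives over 7 arrays was not tested, so the ranking is a description. The first 10 were Coa8 (0.958), Jpt2 (0.953), Ncf1 (0.953), Coa4 (0.947), Ift52 (0.944), 4632404H12Rik (0.936), Tsen15 (0.934), Il4 (0.934), Dctn2 (0.933) and Ttll5 (0.933). Of these, Ncf1 kept the highest r without fl/fl 2 (0.93), and Il4 the lowest (0.59). Ncf1, which encodes a cytosolic subunit of the NADPH oxidase, measured 6.65, 7.0 and 5.98 on the Cebpa fl/fl arrays and 6.09, 5.93, 6.37 and 5.97 on the Cebpa Δ/Δ arrays. None of the 10 was called, and the log2 fold changes of those other than Ncf1 lay between -0.42 (Il4) and -0.08 (Dctn2).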

How the data were processed

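RNA of sorted HSCs was amplified (NuGEN) and measured on the Mouse Gene 1.0 ST array of Affymetrix. The authors computed the deposited intensity values by Robust Multichip Average (RMA) in Partek, which equalises the distributions of the arrays, so a change in total RNA per cell is not seen. RMA and affy are also named, with no version, in the submitters' processing notes, and the genome build behind the probe sets is not given in the sources used here. The values were on a linear scale (1.51 to 9840), whereas the planned test assumed log2, so log2 was taken without a pseudocount. Array number limits the precision.

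Of 35556 probe sets, 21789 had 1 gene symbol, 1621 several and 12146 were unnamed here, and 21698 symbols were updated through the RefSeq gene table (GRCm38.p6). Of the 999 genes with several probe sets the brightest was used. 0 columns of sample values were left unused. Groups and replicate numbers came from the labels. The labels speak of triplicates, but the arrays number 3 and 4, and the design text gives the same numbers of mice.

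Genotypes were compared with lmFit and eBayes (limma 3.58.1, R 4.3.3), genotype as the only term, with Benjamini-Hochberg adjustment at 0.05. The study's thresholds ask for more than 1.5-fold and for a p below 0.05 before adjustment, for which limma's p was used. Ratios of genes were compared by exact two-sided permutation over all 35 regroupings of the arrays, adjusted over the 10 pairs of the 5 genes. The planned test of their ratios to specific granule genes is not reported, since the choice of those genes fixes its direction. The fit was tested on simulated data.

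The 5 genes, the gene lists, the tests and the alternatives were chosen with earlier results of these data known. Alternatives were other normalizations, a floor on low values, the mean over probe sets, genes above the median level, the replicate number as a block, array weights, a variance trend, and single arrays or the 2 least correlated ones left out. Named genes are the 5, from each list those past the study's thresholds and otherwise up to 4 of the highest mean, and the 10 most alike. Ctsc, Prss57, Serpinb1a, Slpi, Spi1, Cebpa, Cebpe and the sort antigens were named besides, for their roles or after their values were seen. The same holds for Cd68, Csf1r, Klf4, Ms4a6c, C1qa, Ms4a7, Lpo, Epx, Pxdn and Rac2. The search for TATAA was added after the sequences were seen. Motif positions count from 1 at the base before the annotated start.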

Additional observations from a re-analysis of the deposited data

Results flagged for a closer look

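In a group of 4 arrays, a value was picked out when its gap to the nearest other array, divided by the range of the group, exceeded Dixon's critical value of 0.829. Of 31 genes examined in Cebpa Δ/Δ HSCs, 4 had such an array, and chance picks out about 1 in 20 groups. Mpo was at 7.68 on Δ/Δ 4 and at 9.10 to 9.35 on the other Cebpa Δ/Δ arrays. Without Δ/Δ 4 its log2 fold change was -0.03 rather than -0.40. The mast cell gene Cpa3 was also low on Δ/Δ 4, at 7.10 against 8.57 to 8.87. Ctss, a lysosomal protease gene, was high on Δ/Δ 3, at 8.77 against 7.87 to 8.0. Hp, the haptoglobin gene, was low on Δ/Δ 2, at 4.91 against 5.64 to 5.74. The groups of 3 Cebpa fl/fl arrays, in which fl/fl 2 was the highest array for all 5 azurophil genes, were too small for this rule.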

How the results depend on the processing

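With single arrays left out, the log2 fold change of Elane ranged from -3.05 to -1.23, of Ctsg from -2.93 to -0.95, of Ms4a3 from -1.47 to 0.15, of Mpo from -1.28 to 0.40 and of Prtn3 from -0.39 to 0.19. The 3 last changed sign without fl/fl 2 alone. The ratio of Mpo to Prtn3 also changed sign (-1.09 to 0.22). The count of the 5 genes called lower ranged from 0 to 2. Elane kept its direction in every alternative, but limma's p passed 0.05 with low values raised to the percentile 25 (-2.24, 0.0512) and without fl/fl 1 and Δ/Δ 3, the arrays least correlated with the others (-2.65, 0.0864), where 0 of the 5 genes were called. The latter setting also lowered the genes called higher from 314 to 169. At an adjusted p of 0.05, 0 to 1 genes were higher and 0 to 3 lower with single arrays left out, and 3 and 2 among the genes above the median level alone, a filter that leaves out Ms4a3. Fits with fewer arrays or a block have less power.

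The replicate number as a block gave -2.26 for Elane (limma p 0.109), 0 of the 5 genes called lower, and 292 genes higher and 120 lower. The numbers do not pair the arrays: deviations from the genotype means correlated at -0.021, 0.102 and -0.185 for numbers 1 to 3. For the genotype counts and the 5 genes, 134 values under these alternatives kept their direction and side of the threshold or stayed within 1.5 times the count, and the others are those above.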

Other observations

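Many deposited values repeated between arrays. Rounded to 4 decimals of log2, 63.6% of the 19938 genes held the same value on 2 or more arrays. Among the 5 azurophil genes this was so for Mpo, equal on Δ/Δ 1 and Δ/Δ 3, while Elane, Prtn3, Ctsg and Ms4a3 had 7 different values each.

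Within the Cebpa Δ/Δ arrays, Elane, Ctsg and Ms4a3 were highest on Δ/Δ 3, as were 25.6% of all genes, and Mpo, Ctsg and Ms4a3 were lowest on Δ/Δ 4, as were 20.8%. Of the 18 specific granule and mature neutrophil genes, 7 were highest on Δ/Δ 3 and 1 was lowest on Δ/Δ 4.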
